A study of Mus musculus with 6 samples.

Results

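Interleukins and their receptors were followed across CD45-negative lung cells of wild-type and Ccr2-deficient mice before and after silica. Members were all genes whose RefSeq symbol starts with Il and a digit. A member was kept where its probe was well above background, by the scanner software's own call, on at least 2 of the 6 arrays. Of 81 members with a named probe, 66 were kept, out of 16422 genes kept of 20887 with a named probe in the whole series. The 66 comprised 25 ligands, 34 receptor chains, 5 inhibitors or decoys and 2 genes that share only the symbol, Il4i1 (an L-amino acid oxidase) and Il1bos (an antisense transcript at the IL-1β gene).

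The WT mice were C57BL/6J and the Ccr2KO mice were B6.129S4-Ccr2tm1Ifc/J, a germline knockout of the chemokine receptor gene Ccr2, all 7 to 9 weeks old when experiments began. Mice were untreated (day 0) or had aspirated silica, a crystalline dust that causes lung fibrosis, 28 or 40 days earlier. Lungs were digested, cleared of erythrocytes and silica, and depleted of cells with the leukocyte antigen CD45 on magnets. For each of the 6 groups RNA of 3 biological replicates was combined into 1 pool and read on 1 one-colour array, so no group holds a spread between animals. Litter and sex are not given in the sources used here, and no vehicle group was analysed here.

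Interleukins are secreted signals that act between cells through receptors built of a ligand-binding chain and a signalling chain, and the chains are often shared within a family. The IL-1 family signals through MyD88 to NF-κB and is held in check by a receptor antagonist, decoy receptors and binding proteins. Families that use the common γ chain, the common β chain or gp130 signal through JAK kinases and STAT factors, while the IL-17 family acts through its own receptors on stroma and epithelium. In the lung, IL-1β released by phagocytes that have taken up silica is a known early step of silicosis. Stromal and epithelial cells make IL-33, IL-6, IL-7, IL-11, IL-15 and IL-34, while IL-2, IL-5, IL-13 and IL-17A come mainly from lymphocytes.

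Levels are the log2 of the signal less that of the array's 75th percentile, so that 0 is the brightness of the probe at that percentile and positive values are brighter. They compare arrays for 1 gene and not 1 gene with another. Leukocyte genes were measured although the cells are labelled CD45-negative. Ptprc, which encodes CD45, was above background on all 6 arrays, at 1.54, 2.62 and 0.29 in WT cells (untreated, day 28, day 40) and 0.45, 2.14 and −0.61 in Ccr2KO cells. The 12 genes of a pan-leukocyte list were all measured and averaged 2.64, 3.87 and 1.61 in WT mice against 1.65, 3.44 and 1.12 in Ccr2KO mice. Ccr2 itself read 0.09, 1.38 and −1.70 in WT mice against −5.07, −1.51 and −3.64 in Ccr2KO mice, lower in the knockout on each day, although the difference of −3.33 ± 0.66 (SE) did not pass the test (adjusted p = 0.414). Where the probe lies relative to the targeted sequence was not worked out here. All were on 1 slide, whose first row held both untreated arrays and Ccr2KO day 28 and whose second row held the other 3.

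**Figure D1:**
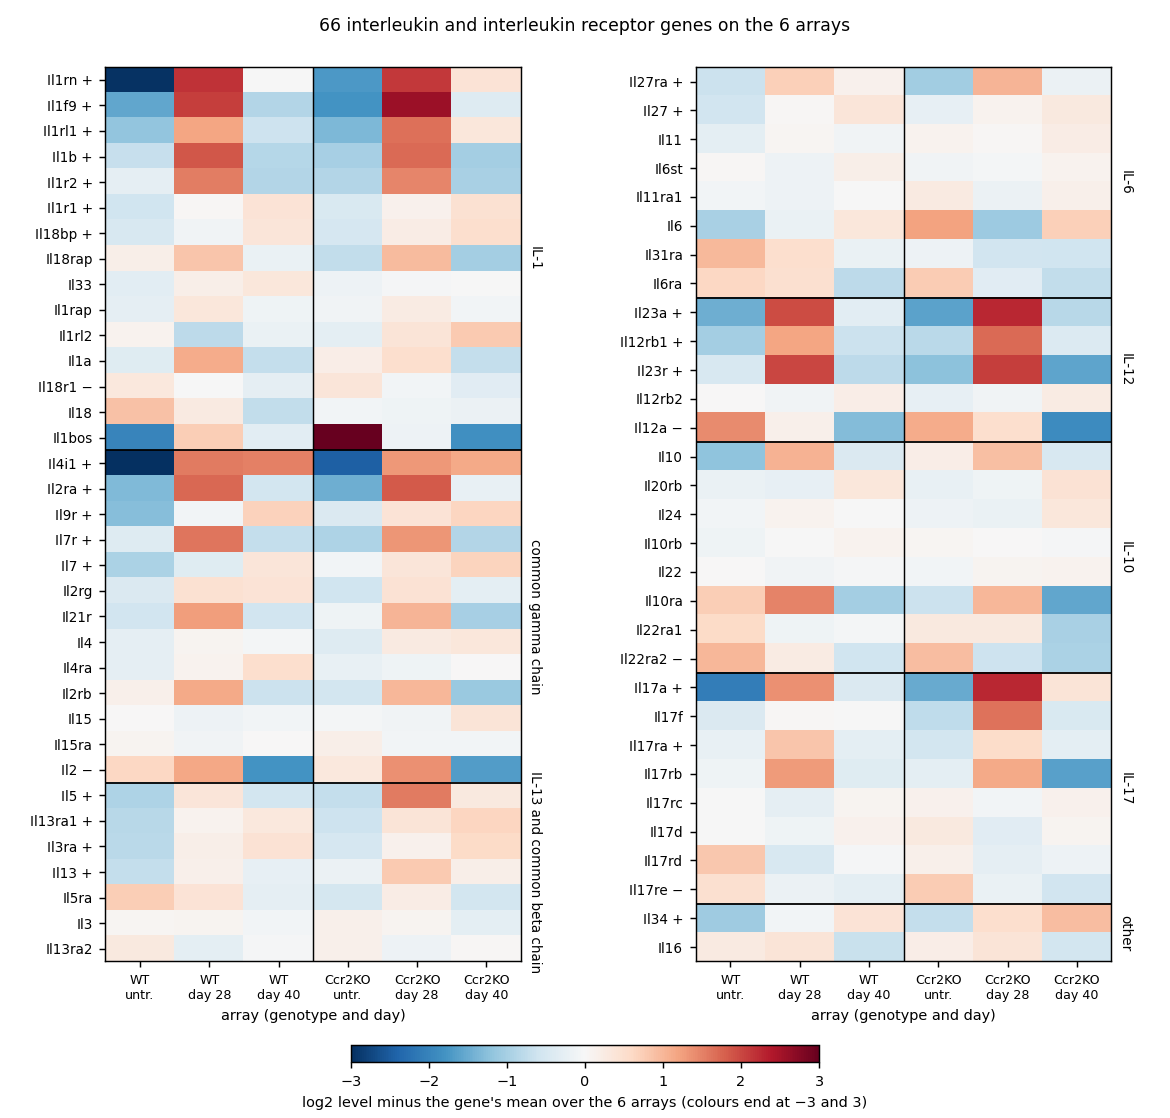
Each row is 1 of the 66 kept members, grouped by cytokine family and ordered within it by the difference after silica, and each column is 1 array. Colour gives the log2 level minus the gene's own mean over the 6 arrays, red above and blue below; + and − mark the 24 members called higher and the 5 called lower after silica. Both day 28 columns hold most of the strong red, Il4i1 stays red at day 40, and Il34 and Il13ra1 are highest at day 40.

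After silica, 24 of the 66 members rose and 5 were called lower, with days 28 and 40 of both genotypes (4 arrays) set against the untreated arrays (2 arrays). The largest rises were in Il4i1, 17.5-fold, Il1rn, the IL-1 receptor antagonist, 11.5-fold with 1 of 2 untreated arrays not above background, and Il17a, a T cell cytokine that acts on stroma and epithelium to recruit neutrophils, 6.45-fold. Those called lower were Il12a, Il22ra2, Il17re, Il18r1 and Il2; for Il2 the call joins opposite days and no direction is given. Il5, Il23a and Il23r, 3 of the 24, passed the filter on dim probes through the day 28 arrays alone, where they were high. The remaining 37 did not pass, among them Il6, Il11, Il33 and the shared signalling chain Il6st. Changes were called by limma at an adjusted p below 0.05 over all 16422 genes, in a fit of day and genotype. Of all genes tested, 10.5% were called higher and 9.33% lower (19.8% together), against 36.4% and 7.58% of the members. The median difference was 0.31 over the members and −0.01 over all genes. In the authors' unscaled values, which put the median of all genes at −0.19, 20 of 55 members rose and 8 fell. There 1309 of 14931 genes were called higher and 3628 lower, so the falls among members are no more frequent than over all genes.

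Across roles, 9 of 25 ligands rose and 2 were called lower, and 11 of 34 receptor chains rose and 2 fell. Among 5 inhibitors 3 rose and 1 fell. The shares over all genes were 10.5% higher and 9.33% lower. For 17 of the 24 risen members all 4 silica arrays lay above both untreated arrays, and for 4 of the 5 called lower (all but Il2) all 4 lay below. The exceptions among the risen members were Il1b, Il1r2, Il7r, Il23r, Il7, Il13 and Il17ra. Day 40 minus untreated was negative in both genotypes for Il1b (−0.15 and −0.04), Il1r2 (−0.60 and −0.10) and Il23r (−0.32 and −0.37). It was also negative in WT mice for Il7r (−0.34) and Il17ra (−0.08). The rises of Il1b, Il1r2 and Il23r thus rest on day 28 alone. That of Il7r does so in WT mice, and in Ccr2KO mice its day 40 array lay only 0.05 above the untreated one. Over all 66 members the silica and untreated arrays did not overlap in 29 (43.9%), against 45.1% of all genes, a share near that background.

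With slide row as a block no member was called in either direction (adjusted p from 0.255 to 0.498), although all 29 kept their sign. That fit called none of the 16422 genes either, so the absence of calls is not particular to the members. Within the first row, where Ccr2KO day 28 can be set against Ccr2KO untreated, all 24 risen members were higher at day 28 and 4 of the 5 called lower, all but Il2, were lower. That difference was 3.76 for Il4i1, 3.86 for Il1rn and 3.79 for Il17a. Both arrays also entered the test that picked these members, so the signs were largely set by the choice and are no separate check of slide row. Leaving out either day 28 array also left 0 calls, and leaving out any other array left 17 or 18.

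In the IL-1 family 7 of 15 measured genes rose and 1 fell after silica, against 10.5% and 9.33% of all genes. The 15 include the antisense transcript Il1bos, which shares only the symbol and did not pass. All 3 of the antagonists and decoys were among the 7, Il1r2 through day 28 alone. Il1rn encodes a protein that occupies the IL-1 receptor without signalling. In WT cells it read −5.67 untreated, which was not well above background, then −0.54 at day 28 and −2.72 at day 40. In Ccr2KO cells it read −4.43, −0.57 and −2.28. Both untreated arrays lay below all 4 silica arrays, and only 1 of the 2 untreated arrays measured the gene (3.52 ± 0.28, adjusted p = 0.00892). The difference was 2.12 with normexp, a background correction that draws dim signals together, and 3.49 or more under the other settings of scaling, filter, probe choice and prior. The drop from day 28 to day 40 (−1.95 ± 0.33) did not pass (adjusted p = 0.0859).

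Il1b, the ligand that caspase-1 cuts to its active form, had another course. It read 3.12, 5.68 and 2.98 in WT mice against 2.84, 5.52 and 2.80 in Ccr2KO mice. Both day 28 arrays stood apart, while day 40 minus untreated was −0.15 in WT mice against −0.04 in Ccr2KO mice. The call after silica (1.26 ± 0.10, adjusted p = 0.00856) is thus an average over a high day and a day near the start, and the day 40 minus day 28 difference was −2.71 ± 0.11 (adjusted p = 0.0147). Il1r2, a decoy receptor for IL-1 made mainly by myeloid cells, followed the same course, at 1.1, 2.89 and 0.50 in WT mice against 0.50, 2.83 and 0.39 in Ccr2KO mice (silica 0.85 ± 0.16, adjusted p = 0.0322; day 40 minus day 28 −2.41 ± 0.18, adjusted p = 0.016). Il1f9, the older symbol of IL-36γ, rose 5.74-fold over both days, from levels of −5.03 and −5.26 (WT and Ccr2KO). It read −1.40 and −0.90 at day 28 and −4.34 and −3.86 at day 40, the latter still 0.69 and 1.40 above untreated. Its silica difference was 2.52 ± 0.20 (adjusted p = 0.00882), or 1.56 with normexp, and its late difference −2.95 ± 0.23 (adjusted p = 0.0164).

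Il1r1, the signalling receptor of IL-1, rose by a smaller step and read highest at day 40. It gave 2.0, 2.63 and 3.00 in WT mice against 2.14, 2.73 and 3.03 in Ccr2KO mice (0.78 ± 0.09, adjusted p = 0.0151). Il18bp, which binds and neutralises IL-18, did likewise, from −0.13 to 0.25 and 0.72 in WT and from −0.14 to 0.58 and 0.87 in Ccr2KO cells (0.74 ± 0.12, adjusted p = 0.024). Il18r1, the ligand-binding chain of the IL-18 receptor, read 2.30, 1.99 and 1.72 in WT mice against 2.35, 1.91 and 1.66 in Ccr2KO mice. It fell (−0.50 ± 0.10, adjusted p = 0.0348), with all 4 silica arrays below both untreated ones. IL-18 itself (Il18) read 0.14, −0.46 and −1.45 in WT mice against −0.81, −0.87 and −0.91 in Ccr2KO mice and did not pass. Il1a, the precursor-active IL-1 released from damaged cells, read −2.54, −1.06 and −2.90 in WT mice against −1.99, −1.67 and −2.89 in Ccr2KO mice and did not pass after silica (adjusted p = 0.742).

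The IL-33 receptor was called and its ligand was not. Il33, a nuclear alarmin of epithelium and stroma, read 3.07, 3.58 and 3.73 in WT mice against 3.25, 3.37 and 3.39 in Ccr2KO mice (0.36 ± 0.15, adjusted p = 0.158). Il1rl1 encodes ST2, the IL-33 receptor, which is also made as a soluble decoy from a shorter transcript. Its brightest probe read −1.89, 0.47 and −1.33 in WT mice against −2.06, 0.94 and −0.37 in Ccr2KO mice, with all 4 silica arrays above both untreated ones (1.90 ± 0.26, adjusted p = 0.0182). Another probe, on a different transcript record of the gene, was above background on all 4 silica arrays and on neither untreated array, at −2.16 and −3.03 in WT mice against −1.68 and −2.27 in Ccr2KO mice at days 28 and 40, at least 10.03-fold higher than untreated. The remaining probe shared the record of the brightest one and was above background on 3 silica arrays, at least 1.32-fold higher. An "at least" fold takes, for an array without a call, the higher of the probe's signal and the dimmest signal that was called there; it is a nominal bound.

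The 250 bases before the annotated start of Il1rn and of both starts of Il1rl1 are given here because Il1rn had the largest difference of the family and Il1rl1 is read from different transcripts. Sequences are RefSeq's on GRCm38.p6, 5′ to 3′, plus strand: Il1rn (the first of 3 starts listed) at chr2:24336610-24336859, Il1rl1 start 1 at chr1:40429320-40429569 and Il1rl1 start 2 at chr1:40439379-40439628. Capitals mark matches on either strand to 4 motifs, NF-κB (GGG and TTTCC with 2 bases between), AP-1 (TGANTCA), STAT (TTCNNNGAA) and C/EBP (TTGCNNAA).
Il1rn: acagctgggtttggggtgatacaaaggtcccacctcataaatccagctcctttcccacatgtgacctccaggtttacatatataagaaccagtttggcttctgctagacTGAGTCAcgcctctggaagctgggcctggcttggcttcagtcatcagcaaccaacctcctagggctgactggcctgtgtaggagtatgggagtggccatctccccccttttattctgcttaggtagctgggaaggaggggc
Il1rl1 start 1: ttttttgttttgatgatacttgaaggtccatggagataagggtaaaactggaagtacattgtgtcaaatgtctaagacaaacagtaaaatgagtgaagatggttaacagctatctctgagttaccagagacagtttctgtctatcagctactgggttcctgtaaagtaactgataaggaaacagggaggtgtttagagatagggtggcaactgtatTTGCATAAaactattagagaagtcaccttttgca
Il1rl1 start 2: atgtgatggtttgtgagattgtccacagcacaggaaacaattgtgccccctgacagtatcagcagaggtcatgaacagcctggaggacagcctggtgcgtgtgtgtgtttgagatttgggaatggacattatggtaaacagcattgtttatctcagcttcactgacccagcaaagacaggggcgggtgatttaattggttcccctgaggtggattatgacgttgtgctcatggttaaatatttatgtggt
Positions count back from the start, so that −1 is the base before it. The Il1rn window holds an AP-1 match that begins at −141, and Il1rl1 start 1 holds a C/EBP match at −34. Start 2 of Il1rl1 holds none of the 4, which says only that these letters are not in this window. Which start gives the transcript of which probe was not established here.

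Among windows of all 32851 starts the motifs were found in 1.4% (NF-κB), 6.7% (AP-1), 7.0% (STAT) and 9.6% (C/EBP). Counted by gene over all its starts, as for the members, they were found in 1.7, 7.8, 8.1 and 10.8% of 27025 genes. Of the 24 risen members 17 had a window, of which 2 held the NF-κB letters (Il1rn, at a further start, and Il23r), 2 AP-1 (Il1rn and Il17a), 3 STAT (Il1f9, Il1r2 and Il7r) and 6 C/EBP (Il1rl1, Il18bp, Il1r1, Il23r, Il3ra and Il7r). Over all 52 kept members with a window the counts were 5, 11, 7 and 12. A match is a stretch of letters and was not tested for binding.

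Of 16 genes of inflammasomes and Toll/IL-1 receptor signalling, 3 rose: Pycard, the inflammasome adaptor ASC (1.0 ± 0.15), Casp1, the protease that cuts IL-1β and IL-18 (0.98 ± 0.13), and Irak3, an inhibitor of the pathway (0.89 ± 0.12); 10.5% of all genes were called higher. Of 12 NF-κB target genes 5 rose, led by the chemokine Ccl2 (2.30 ± 0.23), the matrix protease Mmp3 (1.48 ± 0.27), Nfkbie (1.27 ± 0.14) and Nfkb2 (0.90 ± 0.12). None of the genes of either list fell.

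Il17a, the leading ligand of the IL-17 family, read −1.78, 1.66 and −0.15 in WT mice against −1.23, 2.55 and 0.66 in Ccr2KO mice. The 4 silica arrays all lay above the untreated ones, by 1.63 or more within a genotype, and each day 28 array lay above the day 40 array of its genotype (silica 2.69 ± 0.12, adjusted p = 0.00658; day 40 minus day 28 −1.85 ± 0.14, adjusted p = 0.016). Il17f, its closest relative, was highest in Ccr2KO cells at day 28 (−2.17) and between −4.54 and −3.75 on the other 5 arrays, and did not pass (0.88 ± 0.49, adjusted p = 0.26). Il17d, an IL-17 ligand of non-immune cells, stayed between 1.15 and 1.77 on all arrays.

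The promoter window of Il17a, chr1:20730655-20730904 on GRCm38.p6, plus strand, is given as the ligand with the largest rise; it carries an AP-1 match at its far end, at −244, in capitals.
Il17a: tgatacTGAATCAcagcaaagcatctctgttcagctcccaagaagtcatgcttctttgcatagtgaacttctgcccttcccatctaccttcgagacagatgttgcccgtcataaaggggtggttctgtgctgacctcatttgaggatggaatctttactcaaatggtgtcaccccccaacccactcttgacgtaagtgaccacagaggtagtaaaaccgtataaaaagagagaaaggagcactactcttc

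IL-23 is made of the p19 chain (Il23a) and the p40 chain of IL-12, and its receptor pairs Il23r with Il12rb1. Il23a and Il23r were above background only on both day 28 arrays, the group through which they passed the filter. Il23a read −4.23 and −3.92 there and Il23r −3.35 and −3.27 (WT and Ccr2KO). Their sizes turned on the background correction: day 40 minus day 28 was −2.69 for Il23a and −3.23 for Il23r, and −0.42 and −0.66 with normexp. Over 5 alternatives (slide row and single arrays apart) the late call of Il23a was kept in 2, with an adjusted p of up to 0.136, and the call of Il23r after silica in 2, with up to 0.0825. Il12rb1 read −2.96, −0.75 and −2.59 in WT mice against −2.75, −0.24 and −2.35 in Ccr2KO mice and rose 2.59-fold over both days (1.37 ± 0.11, adjusted p = 0.00905; day 40 minus day 28 −1.98 ± 0.13, adjusted p = 0.0154). Another, dimmer probe for Il12rb1 differed by 0.11 after silica, so the probes disagree on size. Il12a, the p35 chain of IL-12, fell: it read −2.72 and −3.04 untreated and −4.01 and −3.63 at day 28, and was above background on neither day 40 array, hence on 2 of 4 silica arrays (−1.90 ± 0.23, adjusted p = 0.0148). The difference lay between −1.99 and −0.78 over 5 alternatives, the latter with normexp.

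Among 5 receptor chains of the IL-17 family 1 rose and 1 fell, where 10.5% and 9.33% of all genes were called higher and lower. Counts this small are not set apart from those shares. Il17ra, the shared chain, rose 1.50-fold (adjusted p = 0.0417), from −0.16 and −0.49 to 0.90 and 0.61 at day 28, with day 40 at −0.24 and −0.22. Il17re, the partner chain for IL-17C in epithelium, fell from 1.28 and 1.58 to between 0.25 and 0.64 (−0.92 ± 0.15, adjusted p = 0.0254). Il17rc, which completes the IL-17A receptor, lay between 2.81 and 3.21 and did not pass. Il17rb, the receptor of IL-25, read −3.73 and −3.88 at day 28 and was not above background at day 40; neither comparison passed, and its other probe was above background on 1 array only.

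Of 11 measured IL-17 target genes 6 rose and none fell, against 10.5% and 9.33% of all genes called higher and lower. Csf3, the granulocyte growth factor, differed by 4.90 ± 0.94, the neutrophil chemokines Cxcl5 and Cxcl2 by 4.75 ± 0.17 and 1.72 ± 0.14, and Lcn2, an iron-binding antimicrobial protein, by 2.90 ± 0.29. Cxcl2 then fell by 1.96 from day 28 to day 40, whereas the Cxcl5 and Lcn2 differences of 0.45 and 0.32 did not pass. The list also holds S100a8 and S100a9, which are also among the neutrophil markers given next. Neutrophil markers, 10 of 10 measured, averaged 0.62, 2.92 and 1.22 in WT mice against 1.05, 3.70 and 1.98 in Ccr2KO mice, and T cell markers, 9 of 10 measured, averaged −0.19, 1.28 and −0.39 in WT mice against −0.29, 1.38 and −0.58 in Ccr2KO mice. Both marker means, like Il17a, Il23r and Il1b, were highest at day 28 in each genotype, but they parted at day 40. T cell means then lay below the untreated array of their genotype and Il17a above it. Neutrophil means lay above it, whereas Il1b was near it and Il23r was not above background. The part of these cells in the results was not tested. In RNA from mixed cells, fewer cells of a type and less RNA per cell cannot be told apart.

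**Figure D2:**
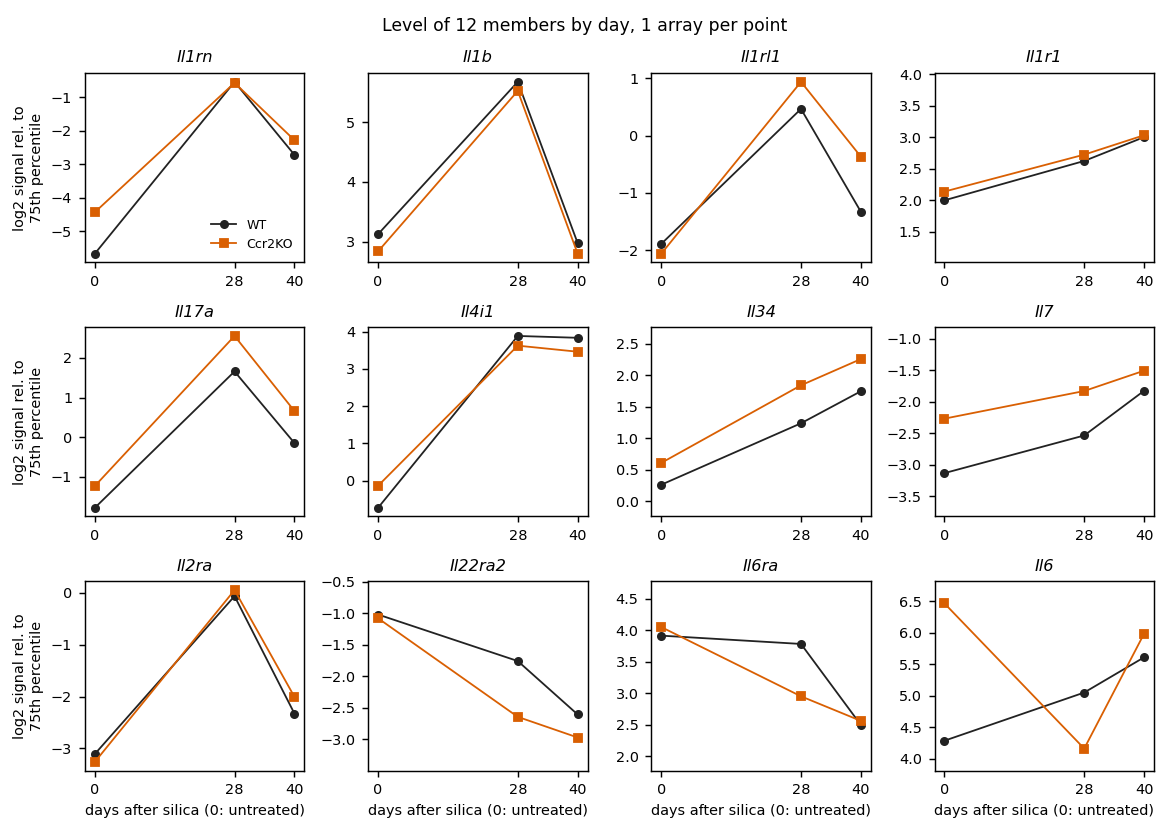
The 12 panels give the log2 level of 1 member each against days after silica (0 is untreated), with 1 array per point and WT in black circles and Ccr2KO in orange squares; there are no error bars because each point is 1 pooled RNA, and panels differ in range. Il1rn, Il1b, Il1rl1, Il17a and Il2ra peak at day 28 in both genotypes, Il1r1, Il34 and Il7 are highest at day 40, Il4i1 holds its level, and Il6 after silica lies above the untreated point in WT and below it in Ccr2KO mice.

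Among 13 genes grouped with the common γ chain 5 rose and Il2 was called lower, with no direction given. The 5 were 1 ligand, 3 receptor chains and Il4i1, which shares only the symbol. Over all genes 10.5% were called higher and 9.33% lower. Il4i1, a secreted L-amino acid oxidase first found as an IL-4-induced gene, went from −0.73 to 3.88 and 3.83 in WT and from −0.14 to 3.62 and 3.46 in Ccr2KO cells. It had the largest difference of all members (4.13 ± 0.24, adjusted p = 0.00764), and its day 40 minus day 28 difference was −0.11 ± 0.28 (adjusted p = 0.869). Il2ra, the high-affinity chain of the IL-2 receptor (CD25) of activated and regulatory T cells, read −3.11, −0.07 and −2.33 in WT mice against −3.26, 0.05 and −2.01 in Ccr2KO mice. Il7r, the IL-7 receptor chain of lymphocytes, read −1.14, 0.85 and −1.48 in WT mice against −1.69, 0.56 and −1.64 in Ccr2KO mice. Il2ra rose 4.27-fold over both days (2.09 ± 0.14, adjusted p = 0.00764) and then fell (−2.16 ± 0.16, adjusted p = 0.0157). Il7r rose 1.98-fold as an average over both days (0.99 ± 0.12, adjusted p = 0.0163) and then fell (−2.27 ± 0.14, adjusted p = 0.0147). At day 40 it overlapped the untreated arrays, with day 40 minus untreated at −0.34 in WT and 0.05 in Ccr2KO mice.

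Il7, the lymphocyte survival factor that stroma makes, also rose. It read −3.13, −2.54 and −1.83 in WT mice against −2.27, −1.83 and −1.51 in Ccr2KO mice, highest at day 40 in both (0.78 ± 0.15, adjusted p = 0.0362). Il9r, the IL-9 receptor, rose from −3.27 and −2.43 to between −2.07 and −1.30 (1.28 ± 0.21, adjusted p = 0.0259); another, dimmer probe was above background on 3 arrays and differed by 0.20. Il15, the survival factor of NK and memory T cells, lay between −1.78 and −1.25, Il15ra, which presents it, between 2.85 and 3.13, and neither passed. The IL-4 receptor chain Il4ra read 1.49, 1.86 and 2.26 in WT mice against 1.54, 1.63 and 1.78 in Ccr2KO mice and did not pass (0.37 ± 0.14, adjusted p = 0.151).

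Il2, the T cell growth factor, was called lower after silica (−0.69 ± 0.15, adjusted p = 0.0436), but that average joins opposite days. It read −4.71 and −5.01 untreated and −4.15 and −3.94 at day 28, above the untreated array in both genotypes, and was not above background on either day 40 array. From day 28 to day 40 the difference was −3.02 (adjusted p = 0.0147), and −0.55 with normexp (adjusted p = 0.0556). With normexp background correction the silica difference was 0.010, so no direction is given for it here.

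Among IL-13, the common β chain ligands and their receptors, 4 of 7 genes rose and none fell, against 10.5% and 9.33% of all genes. Il13, a type 2 cytokine, read −4.31, −3.44 and −3.84 in WT mice against −3.77, −2.80 and −3.41 in Ccr2KO mice (0.66 ± 0.10, adjusted p = 0.0226), and within each genotype both silica arrays lay above the untreated one. Il5, the eosinophil growth factor, was above background only at day 28, at −4.68 and −3.48, and passed the filter through that group. Its call after silica (1.24, adjusted p = 0.0335) was kept in 2 of 5 alternatives, with a difference of 0.32 and an adjusted p of 0.144 with normexp. Il13ra1, which pairs with the IL-4 receptor chain to bind IL-13, read −1.08, −0.15 and 0.07 in WT mice against −0.87, 0.13 and 0.38 in Ccr2KO mice, a 2.11-fold rise without overlap (adjusted p = 0.00936). Il13ra2, the decoy-type IL-13 receptor, lay lower after silica (−0.33 ± 0.11) and did not pass (adjusted p = 0.111). Il3ra, the IL-3 receptor chain, read 2.56, 3.54 and 3.80 in WT mice against 2.88, 3.51 and 3.95 in Ccr2KO mice, a 1.98-fold rise without overlap (0.98 ± 0.12, adjusted p = 0.0149).

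Beside Il13 and Il5, mast cell and basophil markers, 8 of 10 measured, averaged −0.98, −0.02 and −0.18 in WT mice against −1.17, 1.38 and 0.79 in Ccr2KO mice. These 8 gave 5 rises, where 10.5% of all genes were called higher, and Ms4a2 and Tpsab1 of the list were not measured. Innate lymphoid and NK markers, 9 of 9 measured, averaged −1.19, −1.25 and −2.68 in WT mice against −2.33, −1.35 and −2.98 in Ccr2KO mice; none rose, and Gata3 fell (−1.24 ± 0.13). The part of either in the cytokine values was not tested. Of 12 IL-4 and IL-13 target genes 7 rose and 1 fell, against 10.5% and 9.33% of all genes called higher and lower. The rises were led by the epithelial lectin Itln1 (4.43 ± 0.11), Retnla (3.25 ± 0.38), the eosinophil chemokine Ccl24 (3.24 ± 0.60) and the matrix protein Postn (1.78 ± 0.29); the fall was in Cish, a STAT5 feedback inhibitor (−1.15 ± 0.21).

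In the IL-6 family 2 of 8 genes rose and none fell, where 10.5% and 9.33% of all genes were called higher and lower. Il27ra, the IL-27 receptor, read −2.17, −0.80 and −1.39 in WT mice against −2.55, −0.50 and −1.70 in Ccr2KO mice (1.26 ± 0.18, adjusted p = 0.0206), and Il27, the p28 chain, read −1.39, −0.78 and −0.45 in WT mice against −1.06, −0.71 and −0.53 in Ccr2KO mice (0.61 ± 0.13, adjusted p = 0.0435). Il6, the inducer of the acute phase response, read 4.28, 5.05 and 5.61 in WT mice against 6.46, 4.16 and 5.98 in Ccr2KO mice. Its highest value was thus in untreated Ccr2KO cells, and its silica difference of −0.17 ± 0.66 did not pass (adjusted p = 0.867). The standard error of Il6 was several times the median of 0.15 over the members.

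The Il6 promoter window, chr5:30012864-30013113 on GRCm38.p6, plus strand, is given because Il6 after silica lay above the untreated array in WT and below it in Ccr2KO mice; it was 1 of the windows with matches to 3 motifs, in capitals: AP-1 at −249, C/EBP at −128 and NF-κB at −44.
Il6: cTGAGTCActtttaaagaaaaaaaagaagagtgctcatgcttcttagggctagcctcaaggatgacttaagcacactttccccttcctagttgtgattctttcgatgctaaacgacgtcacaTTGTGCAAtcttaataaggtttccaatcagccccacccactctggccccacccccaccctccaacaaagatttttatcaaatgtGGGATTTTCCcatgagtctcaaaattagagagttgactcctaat

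Il6ra, the ligand-binding chain of IL-6, read 3.92, 3.79 and 2.50 in WT mice against 4.05, 2.95 and 2.56 in Ccr2KO mice; all 4 silica arrays were below both untreated ones, and the difference of −1.03 ± 0.24 just missed the threshold (adjusted p = 0.0556). Il6st, gp130, lay between 3.99 and 4.33 on all arrays, Il11, a stromal gp130 cytokine, between −1.72 and −1.21, and Il11ra1, its receptor, between 4.27 and 4.71; none of the 3 passed. Of 12 IL-6 and STAT3 target genes 7 rose and none fell, led by the acute phase genes Saa3 (7.10 ± 0.54), Saa1 (6.07 ± 0.21) and Saa2 (3.87 ± 0.55) and by Timp1 (3.35 ± 0.14). Of 17 JAK, STAT and SOCS genes none rose and 3 fell, Cish, Pias1 (−0.66 ± 0.10) and Stat5b (−0.56 ± 0.11). The shares over all genes were 10.5% called higher and 9.33% called lower.

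Of 8 genes of the IL-10 family none rose and 1 fell, where 10.5% and 9.33% of all genes were called higher and lower. With so few genes these counts are not set apart from those shares. Il22ra2, the secreted IL-22 binding protein that blocks IL-22, read −1.02, −1.76 and −2.61 in WT mice against −1.08, −2.65 and −2.97 in Ccr2KO mice, 2.72-fold lower after silica without overlap (adjusted p = 0.0187). Il22 lay between −4.07 and −3.86 and Il10rb, the chain shared by IL-10 and IL-22 receptors, between 1.65 and 1.88; neither passed. Il34, the second ligand of the CSF1 receptor on macrophages, read 0.26, 1.23 and 1.74 in WT mice against 0.61, 1.84 and 2.25 in Ccr2KO mice. It was highest at day 40 in both genotypes and rose 2.52-fold (1.33 ± 0.11, adjusted p = 0.00885).

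Genes that work with interleukins but bear other names gave 5 rises and 3 falls among 20, where 10.5% and 9.33% of all genes were called higher and lower. Csf2rb2 (2.25 ± 0.15), Csf2rb, the common β chain (1.88 ± 0.25), Osm (1.79 ± 0.30) and Lif (1.35 ± 0.20), both gp130 cytokines, were the largest.

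Between day 28 and day 40 after silica 14 of the 66 members fell and none rose, from 2.01-fold (Il16) to 7.74-fold (Il1f9) where both days were measured. Of these, 9 had risen after silica, namely Il17a, Il1f9, Il23a, Il2ra, Il12rb1, Il23r, Il1b, Il7r and Il1r2. Il2 had been called lower, and the other 4, Il10ra, Il2rb, Il21r and Il16, had not passed. Of all genes 2.53% were called lower and 0.201% higher (2.73% together), against 21.2% and 0 of the members. The median difference was −0.39 over the members and 0.10 over all genes. Il23a and Il23r, among the 14, passed the filter on dim probes through the day 28 arrays alone, so their fall was largely set by the filter. With the filter on all 6 arrays, which leaves them out, 12 of 55 members fell, against 461 of 14928 genes. In all 14, both day 40 arrays lay below both day 28 arrays, and over all 66 members the days did not overlap in 50 (75.8%), against 50.6% of all genes, in either direction.

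The 4 members called in this comparison alone are receptors or cytokines of leukocytes. Il10ra, the IL-10 receptor chain, read 0.95, 1.71 and −0.80 in WT mice against −0.44, 1.21 and −1.34 in Ccr2KO mice. Il2rb, shared by IL-2 and IL-15, read −0.29, 0.70 and −1.10 in WT mice against −0.99, 0.55 and −1.55 in Ccr2KO mice. Both ended below the untreated array of their genotype. Il21r went from 0.05 and −0.19 at day 28 to −1.78 and −2.19 at day 40, and Il16, a CD4-binding cytokine, from −0.10 and −0.10 to −1.16 and −1.05. The adjusted p was 0.0295 for Il10ra, 0.0194 for Il2rb, 0.0456 for Il21r and 0.0348 for Il16.

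Some leukocyte lists fell in the same interval. All 12 pan-leukocyte genes were called lower (median −2.46), as were 8 of 9 T cell, 6 of 8 B cell and 6 of 10 neutrophil genes. The share called lower over all genes was 2.53%. Called lower were also 1 of 10 macrophage and monocyte genes and 1 of 9 of innate lymphoid and NK cells, with medians of −1.49 and −1.50. For mast cells and basophils 0 of 8 genes were called, for fibroblasts 0 of 8 and for epithelium 0 of 10 (medians −0.43, 0.21 and 0.23). The part of leukocyte RNA in the late falls was not tested. The 15 risen members without a late call included Il4i1, Il34, Il1r1, Il13ra1, Il3ra, Il7, Il18bp and Il27. Fibroblast markers, 8 of 8 measured, averaged 4.37, 4.94 and 4.92 in WT mice against 4.54, 5.10 and 5.42 in Ccr2KO mice. They gave 5 rises and 1 fall after silica, where 10.5% and 9.33% of all genes were called higher and lower. Within the second slide row, WT day 40 minus WT day 28 was negative for all 14 fallen members, −2.70 for Il1b, −2.33 for Il7r and −2.26 for Il2ra. Both arrays also entered the comparison that picked the 14, so the sign was largely set by the choice and is no separate check of slide row. A fit with slide row as a block called none of the 16422 genes in this comparison, members included. With slide row as a block none was called (adjusted p from 0.239 to 0.37) and all 14 kept their sign, and leaving out any 1 of the 4 silica arrays left 0 calls.

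**Figure D3:**
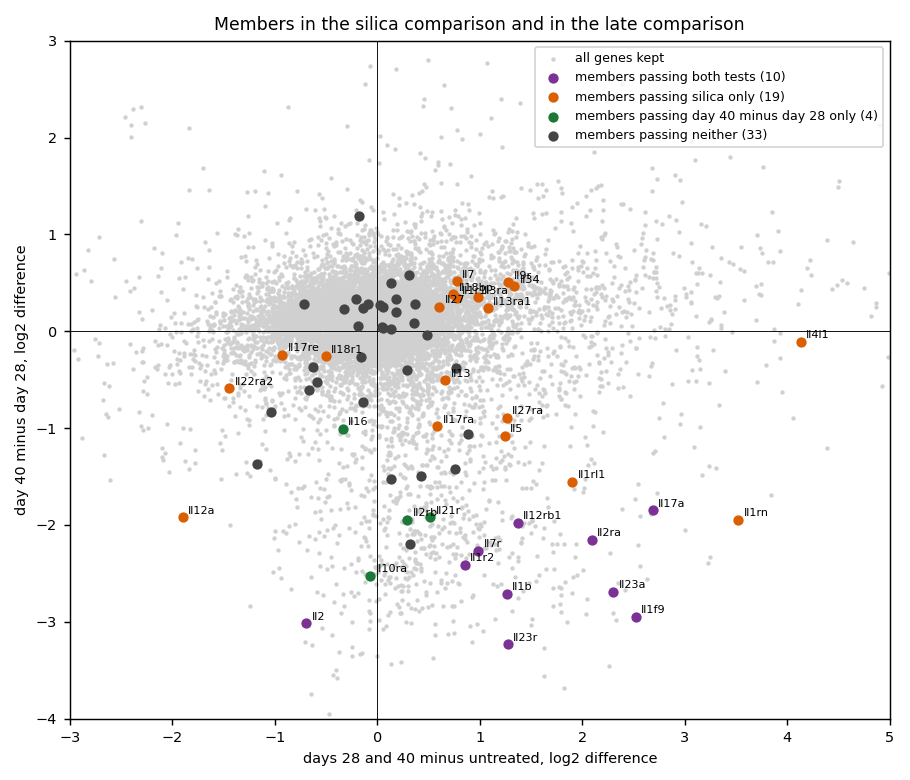
Each point is a gene, by its log2 difference after silica (days 28 and 40 minus untreated, horizontal) and between the late days (day 40 minus day 28, vertical); grey points are the 16422 genes kept, of which 46 lie outside the axes, and coloured points the 66 members by the tests they passed. Of the 10 members that passed both, 9 lie at the lower right, risen after silica and falling late; both axes share the 4 silica arrays.

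**Figure D4:**
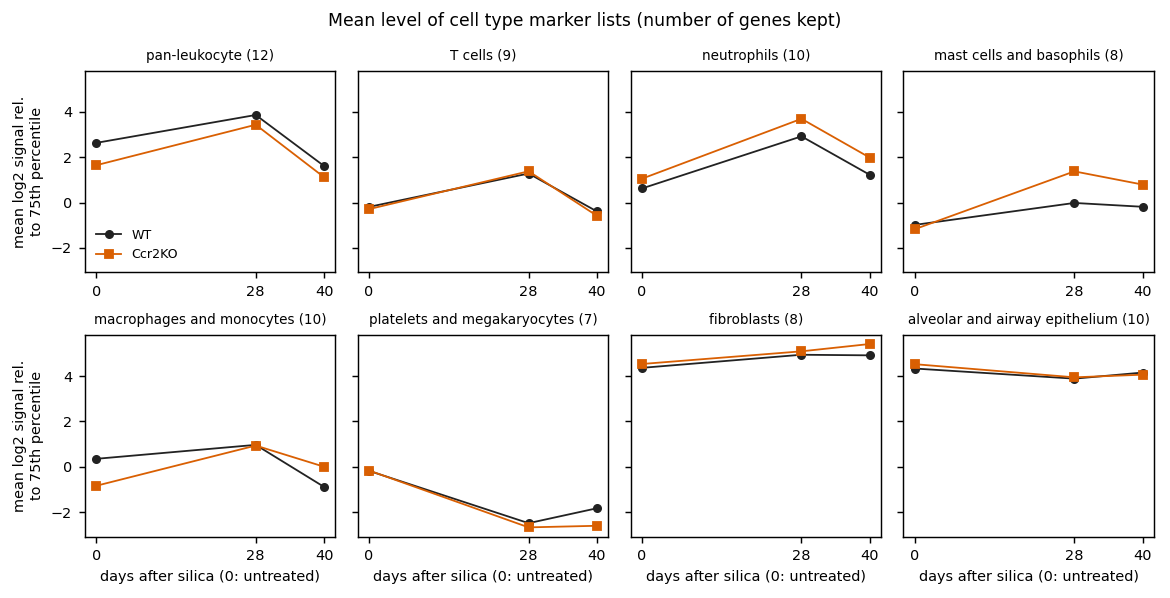
Panels give the mean log2 level of the kept genes of 8 marker lists (number in brackets) against days after silica, 1 array per point, WT in black and Ccr2KO in orange. Pan-leukocyte, T cell and neutrophil lists peak at day 28 in both genotypes, whereas the fibroblast mean is at or near its highest at day 40 and platelet markers are lowest after silica.

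No member differed between genotypes by the test, with 3 arrays of each, and neither did any of the 16422 genes (0% called). At an unadjusted p below 0.05 there were 11 members and 1525 genes, and the smallest adjusted p of a member was 0.381. The members' median standard error was 0.14, and their median difference 0.01. Il17a differed by 0.75 ± 0.11, higher in Ccr2KO on all 3 days (0.55, 0.90 and 0.81), Il13 by 0.54 ± 0.09 and Il34 by 0.49 ± 0.10, each also higher on 3 of 3 days. Il10ra was lower on 3 of 3 days, by −0.81 ± 0.22. In all, 19 of 66 members had 1 sign on the 3 days, as did 32.9% of all genes, and none of these differed by 2-fold or more on average. No member had all 3 arrays of a genotype beyond all 3 of the other, as 4.07% of all genes did.

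The difference of the silica responses between genotypes passed for no member and no gene (limma, 0% called; 3 members and 619 genes at an unadjusted p below 0.05). Its median standard error over the members was 0.55, which is wide beside most of the differences given above, so the fit gives little room to tell a shared from an unequal response. The widest measured contrasts were in Il6, where untreated Ccr2KO cells were 2.18 above WT and day 28 Ccr2KO cells 0.89 below (−2.43 ± 1.21, adjusted p = 0.9998), and in Il1bos, which was above background on 1 of 2 untreated arrays and on 2 of 4 silica arrays.

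Of the 15 members not kept, 11 were above background on no array: Il17c, Il19, Il1f5, Il1f6, Il1f8, Il1f10, Il1rapl1, Il1rapl2, Il20, Il20ra and Il31. Il9, Il21, Il25 and Il17b were above background on 1 silica array each. Among those kept, 55 were above background on all 6 arrays and 11 on 2 to 5, so a member of the latter kind could be kept through the group in which it was high.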

How the data were processed

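Total RNA of CD45-negative lung cells, pooled from 3 biological replicates per group, was labelled with Cy3 (200 ng) and hybridised to 1 Agilent one-colour array per group, per the labels' protocols. The deposited intensity of 62976 spots per array, background-subtracted and detrended by Feature Extraction 11.0.1.1 (protocol GE1_1100_Jul11) per the file headers, was used. The authors' deposited table holds the log2 of the same values for 30574 probes, without scaling between arrays, and R 2.15.1 is named in the submitters' processing notes. The sources used here do not give how its probes were chosen. No per-sample column was left unmapped.

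Control spots were dropped, outlier spots counted as missing, and the log2 values of a probe's remaining spots averaged. From these the 75th percentile of the array was subtracted, a signal of 1179, 1159 and 878 in WT mice against 969, 975 and 793 in Ccr2KO mice (untreated, day 28, day 40). Of 55681 probes 27509 matched 1 RefSeq symbol of GRCm38.p6. Probes well above background, called on 58.2 to 64.3% of probes per array, on at least 2 of 6 arrays were kept, and the brightest probe stood for its gene. No spot was saturated. No depth is defined for arrays, and their number limits the precision.

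Fits ran in R 4.3.3 with lmFit and eBayes of limma 3.58.1 and Benjamini-Hochberg adjustment over 16422 genes. An additive fit of day and genotype left 2 residual degrees of freedom (prior 2.22); a fit of genotype by silica gave the difference of responses. With 1 array per group, these fits take the departure from additivity as error, and p-values measure only the spread between these arrays. Members and lists were chosen with earlier results of these data known. Named with full values are members that passed any test, with a set of ligands, receptors and inhibitors of lung stroma, and up to 4 called genes of each other list. The fits were tested on simulated data. Alternatives were normexp background correction (offset 50, on the median signal), quantile normalization, the authors' table, no filter, the mean of the probes of a gene, a robust prior with an intensity trend, a filter on all 6 arrays, slide row as a block, and each array left out.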

Additional observations from a re-analysis of the deposited data

Results flagged for a closer look

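For 5 members both silica arrays moved one way in WT cells and the other way in Ccr2KO cells; the direction itself was not tested in any of them, and the difference of the silica responses (Ccr2KO minus WT) did not pass in limma (adjusted p = 0.9998 for each). It was −2.43 for Il6, which in WT cells was 0.76 and 1.32 above untreated at days 28 and 40 and in Ccr2KO cells changed by −2.30 and −0.48. It was −6.75 for Il1bos, the antisense transcript at the IL-1β gene, which was above background on 3 of 6 arrays and brightest in untreated Ccr2KO cells at −1.72. For Il1rl2, the IL-36 receptor, it was 1.46, with both WT silica arrays not above background. For Il22 and Il10rb it was 0.26 and −0.24, and no array of either moved by more than 0.23 from the untreated array of its genotype.

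Il17b, Il21, Il25 and Il9 fell outside the comparisons and were each above background on 1 silica array and on no untreated array.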

How the results depend on the processing

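The members called (29 after silica, 14 for day 40 minus day 28) numbered 32 and 15 with normexp, 29 and 12 with quantile normalization, 28 and 18 in the authors' table, 20 and 11 without a filter, 25 and 12 with the filter on all 6 arrays, 29 and 14 with the mean of probes, and 28 and 16 with an intensity trend. With slide row as a block, a fit that called none of the 16422 genes, both counts were 0. Without 1 array they ranged from 0 to 18 after silica, 0 without WT day 28 or without Ccr2KO day 28, and from 0 to 18 for day 40 minus day 28, 0 without any 1 of the 4 silica arrays; fewer arrays and residual degrees of freedom enter these fits. Of the 29, 18 were called under every alternative that tested them, other than slide row and single arrays left out, and 9 of the 14. For Il1rn, Il12a and Il23a among the 18, and Il23r among the 9, those were 5 alternatives and not 7. The authors' table and the filter on all 6 arrays did not hold these members. Il2 after silica turned to 0.010 with normexp, and Il1bos ranged from −4.54 without WT untreated to 2.20 without Ccr2KO untreated (adjusted p = 0.0285); the cause was not tested. Over all genes, the 3257 called after silica became 4937 in the authors' table and 1877 without a filter, and the 449 for day 40 minus day 28 became 883 in the authors' table, 705 with normexp, 682 with an intensity trend and 233 without a filter. No member was called for Ccr2KO minus WT or for the difference of responses under any alternative that was run, and the latter could not be fitted without either untreated array. Normexp on the mean signal was not run; the median signal took its place, chosen after seeing the data. No paired analysis was possible because the labels give no replicate numbers and each group is 1 array. Signal over background limits Il23a, Il23r, Il5, Il2 and Il12a, which were above background on 2 to 4 arrays.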
